A study of Mus musculus with 7 samples.

Results

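The genes described here are 10 transcripts that adipocytes make in abundance: Adipoq, Lep, Plin1, Cidea, Cidec, Fabp4, Cfd, Retn, Scd1 and Rbp4. They were found by gene name, or by current symbol through the RefSeq accession, among the non-control probes of mouse whole-genome Agilent arrays hybridized with quadriceps muscle RNA. All 10 genes were on the array, with 12 of its 39429 probes, and all 12 passed the filter on dim probes that left 20991 probes and 16577 genes. WT muscle was measured on 4 arrays and AR113Q muscle on 3, all mice being of the C57BL/6 strain and 3 months old, with 1 array per mouse. AR113Q mice are knock-in mice with an expanded CAG repeat and model spinal and bulbar muscular atrophy (SBMA) at a stage labelled presymptomatic. The study's legends and labels call the controls WT, whereas its results text describes knock-in controls with a short repeat, so which of these the 4 control mice were cannot be told apart here. The series design names the mutant group AR113Q-NCD without giving the meaning of the last 3 letters. The knock-in is present in every cell of the mouse, and whole muscle was measured, not isolated fibers.

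White adipocytes store triglyceride in lipid droplets and secrete adipokines, hormones and other proteins that act on muscle, liver and brain. A few adipocytes lie between the fibers and along the fascia of a healthy muscle, so that a whole-muscle RNA sample can carry their transcripts. PPAR gamma (Pparg) and C/EBP alpha (Cebpa) are the transcription factors that drive and maintain the adipocyte program, and many of the 10 genes are their known targets. Some of the 10 are not confined to adipocytes: Fabp4 is made by capillary endothelium and macrophages, and Scd1, Cidea, Cidec and Rbp4 are found in other lipid-handling cells.

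Each array held 43020 non-control spots, and between 47.6% and 55.8% of the probes were well above background on an array, a flag set by the extraction software. No spot was saturated. The 10 fiber genes listed as markers of skeletal muscle were well above background on all 7 arrays, and 0 of them passed the thresholds below in limma (3 had an adjusted p of at most 0.05 with a smaller fold, and 4 an unadjusted p of at most 0.05), with a summed level of 19.95 to 20.06 on the log2 scale in WT and 19.50 to 19.88 in AR113Q. The arrays lay on 5 slides, and only slide 2 held both genotypes, with WT replicate 2 and AR113Q replicate 1. WT replicates 3 and 4 shared slide 4. With so few arrays, the precision of each value is limited by their number. Levels are given as log2 of the background-subtracted spot intensity after quantile normalization between arrays, and differences as AR113Q minus WT on that scale. Levels of different probes depend on the probe and were not set against each other. The test was limma, with Benjamini-Hochberg adjustment over the 20991 probes, and a gene was called where its brightest probe had an adjusted p no higher than 0.05 together with a log2 fold change no smaller than 1 in either direction. Since nothing states that the mice came from separate litters or cages, the p-values measure the spread between these samples.

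The sequences of 3 probes, each with a reading frame free of stop codons, are shown to make clear what was hybridized, with the mm9 coordinates that the array annotation gives. The Adipoq probe lies at chr16:23157576-23157635 on the plus strand, a Retn probe at chr8:3657312-3657371 on the plus strand, and the dimmer Cidec probe at chr6:113378116-113378175 on the minus strand.
Adipoq: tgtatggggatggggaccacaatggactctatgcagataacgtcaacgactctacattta
Retn: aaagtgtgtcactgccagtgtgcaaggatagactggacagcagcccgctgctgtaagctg
Cidec: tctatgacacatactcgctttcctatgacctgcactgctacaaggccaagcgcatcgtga
The GC content of the 12 probes ran from 35% to 55% with a median of 44.2%, beside a median of 41.7% over all 39429 probes.

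Of the 10 genes, 6 were called lower and 1 higher in AR113Q muscle, and 3 were not called. Adipoq, Retn, Cfd, Rbp4, Plin1 and Cidec were downregulated, Cidea was upregulated, and Fabp4, Scd1 and Lep did not pass. Over all 16577 genes, each by its brightest probe, 24.3% were called, 13.1% lower and 11.2% higher. The median difference of the 10 genes was -1.21, beside -0.01 for all genes tested. The values of 6 of the 10 genes did not overlap between genotypes (Adipoq, Retn, Cfd, Rbp4, Plin1 and Cidea), where 49.3% of all genes did not overlap. In a bulk sample, fewer adipocytes and less RNA per adipocyte cannot be told apart.

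**Figure D1:**
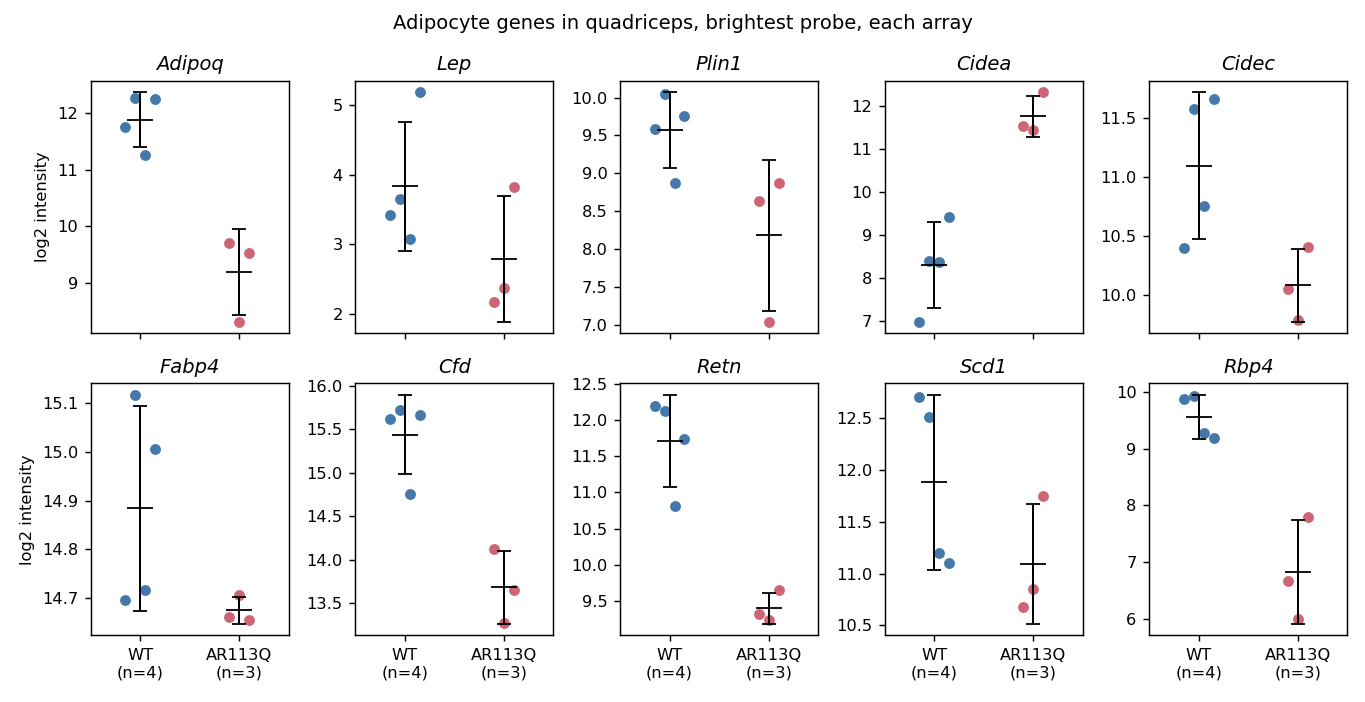
Log2 intensity of the brightest probe of each of the 10 genes on every array, WT (blue, n = 4) and AR113Q (red, n = 3), with the mean and SD as a line with bars; each panel has its own vertical axis, which does not start at 0. The genotypes stand apart for Adipoq, Cfd, Retn, Rbp4 and Cidea, nearly touch for Plin1, where the closest arrays are at 8.88 and 8.87, and overlap for Lep, Cidec, Fabp4 and Scd1.

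The secreted proteins are given first. Adipoq encodes adiponectin, the adipokine that raises fatty acid oxidation and insulin sensitivity. Its levels were 11.77, 12.27, 11.26 and 12.26 in WT replicates 1 to 4, and 9.71, 8.31 and 9.53 in AR113Q replicates 1 to 3. Every AR113Q array lay below every WT array, by at least the gap between 11.26 and 9.71. The mean fell from 11.89 ± 0.48 (SD, n = 4) to 9.18 ± 0.76 (SD, n = 3). The log2 fold change was -2.71 (SE 0.39, adjusted p = 0.00114 by limma), which is 6.52-fold lower, with a 95% interval of -3.59 to -1.82.

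Rbp4 encodes the retinol carrier of plasma, which adipocytes also secrete. Its probe, at chr19:38191120-38191179 on the minus strand of mm9, read 9.87, 9.92, 9.27 and 9.19 in WT and 6.67, 5.99 and 7.80 in AR113Q. The WT arrays lay close together, the AR113Q arrays were more spread, and the groups did not overlap. The change was -2.74 (SE 0.41, adjusted p = 0.00137 by limma), or 6.68-fold lower, with a 95% interval of -3.68 to -1.80.

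Retn encodes resistin, an adipokine of mouse adipocytes. It had 2 probes, and both moved alike. The brighter one read 12.19, 12.12, 10.81 and 11.74 in WT and 9.32, 9.23 and 9.65 in AR113Q, a change of -2.31 (SE 0.33, adjusted p = 0.00115 by limma). The second one, at chr8:3659757-3659816 on the plus strand, read 11.81, 12.06, 10.76 and 11.55 in WT and 9.21, 9.19 and 9.43 in AR113Q, a change of -2.27 (SE 0.30, adjusted p = 0.000788 by limma). WT replicate 3 was the lowest WT array on both probes, and the 3 AR113Q arrays lay close together below it. The brighter probe gives a 4.97-fold lower mean in AR113Q.

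Cfd encodes adipsin, the complement factor D protease, and is among the most abundant adipocyte transcripts. Its probe, at chr10:79355302-79355361 on the plus strand, read 15.62, 15.73, 14.76 and 15.66 in WT and 14.12, 13.28 and 13.65 in AR113Q. WT replicate 3 was low among the WT arrays, and still above every AR113Q array. The mean fell from 15.44 ± 0.46 (SD, n = 4) to 13.68 ± 0.42 (SD, n = 3), a change of -1.76 (SE 0.29, adjusted p = 0.00224 by limma), or 3.39-fold lower.

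Lep encodes leptin, the hormone that signals fat stores to the brain. Its single probe, at chr6:29023234-29023293 on the plus strand, was spotted 10 times on each array and was dim everywhere. It was well above background on 2 of 4 WT arrays (replicates 2 and 4) and on 1 of 3 AR113Q arrays (replicate 3). The levels were 3.42, 3.66, 3.08 and 5.18 in WT and 2.18, 2.37 and 3.83 in AR113Q, and they overlapped. The change of -1.04 (SE 0.56, adjusted p = 0.166 by limma) did not pass, and its 95% interval ran from -2.33 to 0.24. Without AR113Q replicate 3 the change was -1.56 with an adjusted p of 0.0528 by limma.

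The proteins that coat lipid droplets did not move as 1 group. Plin1 encodes perilipin 1, which guards the droplet of the adipocyte against lipases. Its probe, at chr7:86866112-86866171 on the minus strand, read 9.59, 10.05, 8.88 and 9.76 in WT and 8.63, 7.04 and 8.87 in AR113Q. AR113Q replicate 2 stood far below the other AR113Q arrays, and AR113Q replicate 3 reached WT replicate 3 to within 0.01. The change was -1.39 (SE 0.46, adjusted p = 0.0389 by limma), or 2.62-fold lower, with a 95% interval of -2.44 to -0.34. Without AR113Q replicate 2 it was -0.82 and no longer passed, and the call was also lost without AR113Q replicate 1 (-1.61) and without WT replicates 1 (-1.38), 2 (-1.23) or 4 (-1.32).

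Cidec encodes the droplet protein that joins small droplets into the large one of the white adipocyte. Its brighter probe, at chr6:113374630-113374689 on the minus strand, read 10.40, 11.58, 10.75 and 11.66 in WT and 10.05, 9.79 and 10.40 in AR113Q. WT replicate 1 lay at the level of AR113Q replicate 3, so the groups overlapped. The change of -1.02 (SE 0.34, adjusted p = 0.0388 by limma) stood at the fold threshold. The dimmer probe, whose sequence is given above, read 8.41, 9.19, 8.26 and 9.03 in WT and 8.25, 7.14 and 8.08 in AR113Q, and its change of -0.90 (SE 0.33, adjusted p = 0.0588 by limma) was not called. The call on the brighter probe was lost without AR113Q replicate 1 (-1.0) or 2 (-0.87) and without WT replicate 2 (-0.86) or 4 (-0.83).

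Cidea, a relative of Cidec that is best known from the droplets of brown adipocytes, went the other way. Its probe lies on chromosome 18 and read 6.98, 8.39, 8.37 and 9.42 in WT and 11.53, 11.44 and 12.31 in AR113Q. The WT arrays were widely spread, with replicate 1 lowest, and the lowest AR113Q array stood above the highest WT array. The mean rose from 8.29 ± 1.0 (SD, n = 4) to 11.76 ± 0.48 (SD, n = 3), a change of 3.47 (SE 0.51, adjusted p = 0.00131 by limma), or 11.1-fold higher, with a 95% interval of 2.30 to 4.64. The change of Cidea minus that of Cidec, each taken from its own WT mean, lay between 4.29 and 4.71 on the 3 AR113Q arrays and between -0.61 and 0.57 on the WT arrays. An exact two-sided permutation test over the 35 arrangements of the arrays gave p = 0.0571, the smallest it can give with these group sizes. The pair was chosen after its values were seen, so this p is no independent evidence.

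Neither of the lipid enzymes and carriers passed. Fabp4 encodes the fatty acid binding protein aP2. Its probe, at chr3:10204452-10204511 on the minus strand, read 14.70, 15.12, 14.72 and 15.01 in WT and 14.66, 14.71 and 14.66 in AR113Q. The change of Fabp4 was -0.21 (SE 0.16, adjusted p = 0.328 by limma), and the 95% interval of -0.58 to 0.17 leaves out a change of the size seen in Adipoq. Scd1 encodes the desaturase that makes oleic acid. Its probe, at chr19:44469387-44469446 on the minus strand, read 12.71, 12.51, 11.20 and 11.10 in WT and 10.68, 10.85 and 11.75 in AR113Q. WT replicates 1 and 2 stood above the rest, while WT replicates 3 and 4 lay among the AR113Q arrays, and the change of -0.79 (SE 0.46, adjusted p = 0.202 by limma) came with an interval of -1.85 to 0.28.

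**Figure D2:**
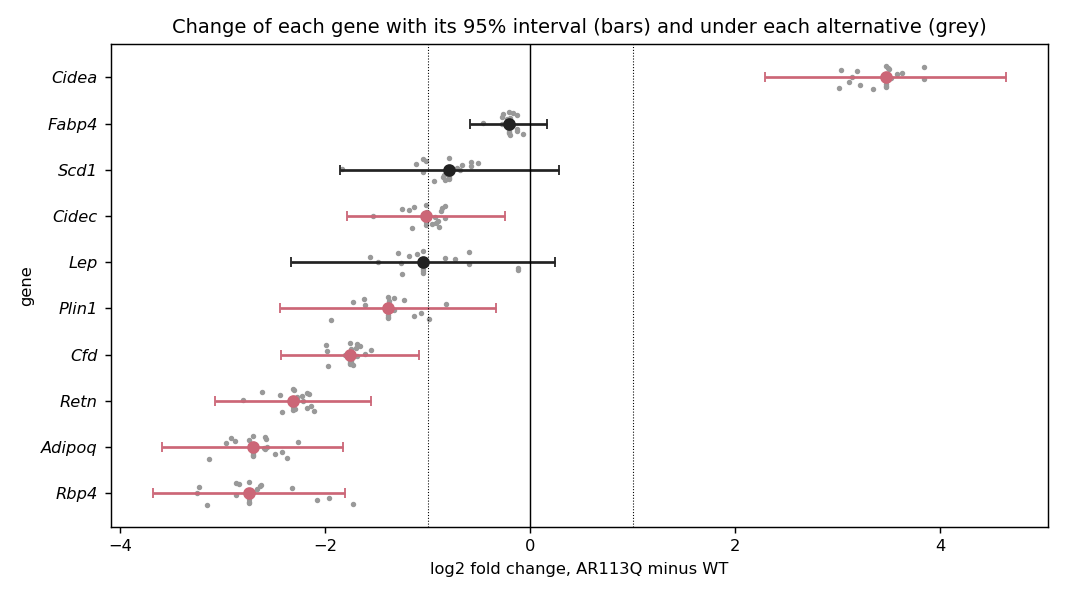
Log2 fold change of each gene (AR113Q minus WT, brightest probe), with its 95% interval as a bar, red where the gene was called and black where it was not; grey points are the same value under each alternative processing or with 1 array left out, and dotted lines mark a log2 fold change of 1 in either direction. Cidea is the single gene to the right of 0, and the points of every gene stay on their side of 0.

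Within each genotype, the lowest and the highest array were counted over the 10 genes. The same count was not made over all genes, so whether the pattern is particular to these 10 was not tested. WT replicate 3 was the lowest WT array for 5 of the 10 genes (Adipoq, Lep, Plin1, Cfd and Retn), and WT replicate 2 was the highest for 5. AR113Q replicate 2 was the lowest AR113Q array for 7 genes, and AR113Q replicate 3 the highest for 7. The changes from the WT mean were not equal among the genes on 1 array. That of Adipoq minus that of Plin1 was -1.24, -1.05 and -1.66 on the 3 AR113Q arrays and between -0.14 and 0.18 on the WT arrays, and that of Adipoq minus that of Fabp4 was between -3.40 and -1.96 on the AR113Q arrays and between -0.46 and 0.25 on the WT arrays. Each of these pairs, likewise chosen after their values were seen, also had p = 0.0571 in the exact two-sided permutation test, again the smallest it can give. Benjamini-Hochberg adjustment over the 3 pairs leaves equal p-values as they are, so the unchanged 0.0571 adds no support. Slide 2, which carried WT replicate 2 and AR113Q replicate 1, gave a difference within the slide of -2.56 for Adipoq, -3.25 for Rbp4, -2.80 for Retn, -1.61 for Cfd, -1.42 for Plin1, -1.53 for Cidec and 3.14 for Cidea. With slide as a fixed block, the genotype difference rests on that slide alone. In that limma fit 0 of the 10 genes were called and 5 had an unadjusted p of at most 0.05, and 0 of all probes tested were called. With slide as a random block all 7 calls were made.

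Upstream sequence was available from RefSeq (GRCm38.p6) for 7 of the 10 genes. The 250 bases before the start are shown for 3 of the secreted proteins that fell together, Adipoq at chr16:23146286-23146535 on the plus strand, Retn at chr8:3655520-3655769 on the plus strand, and the second of the Rbp4 starts at chr19:38124812-38125061 on the minus strand. Capitals mark any match, on either strand, to 4 motifs. The first, AGGTCA, is the half-site of nuclear receptors such as PPAR gamma. The second is the half-site of steroid receptors, which reads AGAACA. The third is the TATA box, searched here in the form TATAAA. The last is a palindrome that C/EBP factors bind, spelled TTGCGCAA. No matches overlap in these windows.
Adipoq: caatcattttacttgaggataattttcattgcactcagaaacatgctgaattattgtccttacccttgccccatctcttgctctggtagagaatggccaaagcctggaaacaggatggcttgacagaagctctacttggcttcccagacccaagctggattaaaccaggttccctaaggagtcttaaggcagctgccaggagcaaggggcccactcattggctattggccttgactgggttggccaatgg
Retn: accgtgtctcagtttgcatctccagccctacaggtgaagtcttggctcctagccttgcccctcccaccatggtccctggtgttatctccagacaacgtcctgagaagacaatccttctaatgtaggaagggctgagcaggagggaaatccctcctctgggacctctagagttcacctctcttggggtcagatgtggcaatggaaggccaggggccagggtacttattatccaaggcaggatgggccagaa
Rbp4: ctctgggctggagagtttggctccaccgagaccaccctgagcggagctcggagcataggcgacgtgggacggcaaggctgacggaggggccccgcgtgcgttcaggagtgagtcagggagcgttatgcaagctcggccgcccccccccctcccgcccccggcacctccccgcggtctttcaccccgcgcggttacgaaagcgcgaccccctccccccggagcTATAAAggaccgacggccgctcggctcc
The windows of Adipoq, Retn, Cfd and Plin1, both windows of Cidec and the first of Rbp4 held no match. The second Rbp4 window held TATAAA 28 to 23 bases before the start, and that of Lep, not printed, held TTGCGCAA 55 to 48 bases before it. Among all 32851 windows of this length, 14% held the nuclear receptor half-site, 16.1% the steroid receptor half-site, 12.4% the TATA box and 0.164% the C/EBP palindrome.

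Other genes of adipocytes, lipid handling and adipokine response, several of which muscle also makes, were read from 7 lists of 80 genes, of which 71 had a kept probe. Of these, 20 were called lower and 7 higher, with a median difference of -0.36, beside 24.3% of all genes called, 13.1% lower and 11.2% higher. Among the alternatives that gave calls, the split was closest to even at 10 lower and 8 higher of 71 with normexp background correction. Mean spot intensity gave the same counts. Over all 20991 probes, normexp called 1100 lower and 975 higher (9.89%), and mean spot intensity 1197 lower and 1067 higher (10.8%). Next came 14 lower and 8 higher of 61 with probes well above background on all 7 arrays, beside 21.9% of all probes called. The authors' values gave 10 lower and 6 higher of 69, beside 857 lower and 735 higher of 18592 probes (8.56%). Among 15 other adipocyte-enriched genes tested, 9 were lower and 0 higher, with a median of -1.49. Car3, the carbonic anhydrase that fat and slow muscle make in quantity, fell by 3.85 on the log2 scale (SE 0.28, adjusted p = 0.000103 by limma), and lay between 14.46 and 15.61 in WT and between 10.90 and 11.14 in AR113Q. Mest, an imprinted gene that marks growing adipocytes, was not well above background in AR113Q muscle, on 0 of 3 arrays, and stood at least 6.95-fold lower (adjusted p = 0.000376 by limma). A second Mest probe gave at least 2.04-fold. The fold threshold was missed with mean spot intensity (-0.81), normexp (-0.80) and the authors' values (-0.40). Such bounds set the mean of the bright group against, on each dim array, the lowest signal well above background or the probe's own signal, whichever is higher.

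Of 12 transcription factors of adipogenesis tested, 3 were lower and 1 higher, with a median of -0.04, beside 13.1% of all genes called lower and 11.2% higher. Pparg and Cebpa, named here outside the naming rule and after their values were seen, did not pass. Pparg lay between 8.47 and 9.07 in WT and between 8.46 and 8.98 in AR113Q, a change of -0.01 (SE 0.22, adjusted p = 0.969 by limma) whose sign turned with the scaling to the 75th percentile. Cebpa changed by 0.14 (SE 0.30, adjusted p = 0.722 by limma). The lower ones included Mlxipl, which encodes the glucose sensor ChREBP, at -2.29 (SE 0.27, adjusted p = 0.000536 by limma) on its brightest probe. A second, dimmer Mlxipl probe gave 0.43 and was not called, and the mean of both, at -0.93, missed the fold threshold. Srebf1, the regulator of fatty acid synthesis, changed by -2.12 (SE 0.34, adjusted p = 0.00177 by limma), but missed the fold threshold with mean spot intensity (-0.82), normexp background correction (-0.77) and the authors' values (-0.50). Cebpd, an early factor of adipogenesis that many tissues induce, rose by 1.60 (SE 0.25, adjusted p = 0.00173 by limma).

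Genes of fatty acid and triglyceride synthesis gave 2 lower and 1 higher of 15, a share no higher than the 24.3% called over all genes. Scd2, a desaturase beside Scd1 on chromosome 19, fell by 1.90 on the log2 scale (SE 0.23, adjusted p = 0.000566 by limma), and Thrsp, a lipogenic nuclear protein, fell by 1.32 (SE 0.29, adjusted p = 0.0077 by limma). Scd3 and Fasn, fatty acid synthase, both named outside the rule, changed by -0.17 and -0.85 and were not called. Acacb, the acetyl-CoA carboxylase of muscle mitochondria, rose by 1.33 on its brightest probe and by 1.69 on a second one.

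Genes of uptake, storage and lipolysis were split, with 4 lower and 3 higher of 15, beside 13.1% of all genes called lower and 11.2% higher. The probe of 1 of the lower ones, Fabp5, named for this reason, is annotated on chromosome 9, away from the gene, so what it measured is uncertain. Adrb3, the beta 3 adrenergic receptor through which catecholamines start lipolysis in mouse fat, was between 6.89 and 9.01 in WT and was well above background on 0 of 3 AR113Q arrays. Its level was at least 20.4-fold lower (adjusted p = 0.000376 by limma), and a second probe, also well above background on 0 of 3 AR113Q arrays, gave at least 2.91-fold. The 20.4-fold bound depends on the background subtraction and normalization, and Adrb3 was called at smaller log2 changes of -2.02 with mean spot intensity, -1.96 with normexp and -1.37 with the authors' values. Gpd1, which makes glycerol 3-phosphate, fell by 1.88 on the log2 scale. In the other direction, Pnpla2, the first lipase of triglyceride breakdown, rose by 1.57 (SE 0.27, adjusted p = 0.00265 by limma), and Plin4, a droplet protein of fat and muscle, rose by 1.57 (SE 0.33, adjusted p = 0.00605 by limma). Lipe, hormone-sensitive lipase, named outside the rule, changed by 0.90 and missed the fold threshold.

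**Figure D3:**
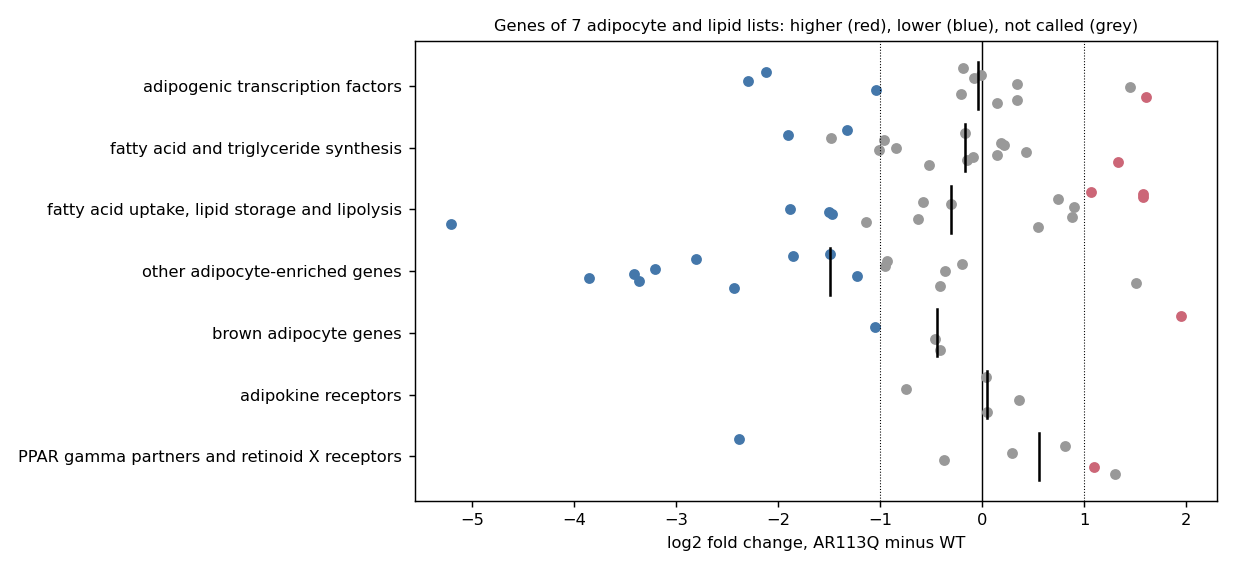
Log2 fold change (AR113Q minus WT) of the genes of 7 lists, 1 point per gene by its brightest probe, red where called higher, blue where called lower, grey where not called; the black line is the median of the list and dotted lines mark a log2 fold change of 1. The list of other adipocyte-enriched genes has 9 blue and 0 red points, and the list of uptake, storage and lipolysis has 4 blue and 3 red points.

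Brown adipocyte genes were mostly dim. Of 8, 4 were tested, with Prdm16 lower (-1.05) and Zic1 higher (1.95), beside 13.1% of all genes called lower and 11.2% higher. The Prdm16 call was lost under 10 of 21 alternatives, among them the authors' values (-0.085) and the fits without AR113Q replicate 2 (-1.08) or 3 (-0.74) and without WT replicate 1 (-1.01) or 3 (-0.92). That of Zic1 was lost under 4, down to 0.49 with mean spot intensity. A second Zic1 probe gave 0.40 and was not called. Ucp1, the uncoupling protein that defines brown fat and is named outside the rule, was well above background on 1 array, a WT one, and was not tested. The receptors for the adipokines gave 0 calls of 4 tested in limma. The 1 with an unadjusted p of at most 0.05, Cdh13, the T-cadherin that binds adiponectin, named outside the rule, also passed the adjusted threshold (adjusted p = 0.0299 by limma) with a change of -0.74 that missed the fold threshold. Adipor1 and Adipor2, the adiponectin receptors, named outside the rule, changed by 0.05 and 0.36. Among the PPAR gamma partners, Rxrg, a retinoid X receptor of muscle, fell by 2.38 on the log2 scale (SE 0.28, adjusted p = 0.000480 by limma) and its second probe by 2.23. Ppard, the PPAR of oxidative muscle, rose by 1.1 (SE 0.19, adjusted p = 0.00281 by limma), and by 0.98 without AR113Q replicate 2, short of the fold threshold.

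Some genes of progenitors, macrophages and Schwann cells were also called, and their part in the result was not tested. Of 12 markers of adipocyte progenitors and fibro-adipogenic cells, 7 were lower and 0 higher, where 13.1% of all genes were called lower, among them Col1a1 (-3.27) and Pi16 (-2.98), while the defining marker of these cells, Pdgfra, changed by -0.27 and was not called. Their summed level lay between 16.40 and 16.66 in WT and between 16.28 and 16.74 in AR113Q, where the abundant Dcn weighs most. Of 9 macrophage genes, 4 were lower, with Aif1 at -3.77 and Adgre1 at -1.94, and 1 was higher, Cd163 at 1.18. Aif1 ran from -3.97 to -1.20 over the alternatives and kept its call under 20 of 21. Cd163 was no longer called without AR113Q replicate 2 (0.93), with the 75th percentile (0.97), normexp (0.49) or mean spot intensity (0.48), and Adgre1 was not with normexp (-0.995) or the authors' values (-0.73). Their summed level was 12.89 to 13.61 in WT and 12.27 to 12.69 in AR113Q. Of 6 Schwann cell genes 2 were lower, among them S100b at -1.23, and the sum lay between 11 and 12.18 in WT and between 10.39 and 10.85 in AR113Q. S100b, which adipocytes also make, lost its call under 10 of 22 alternatives, among them the fits without AR113Q replicate 1 (-1.01) or 2 (-1.09) and without WT replicate 1 (-1.15), 2 (-1.1) or 3 (-1.18).

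Of 9 endothelial genes 0 were called in limma, with 3 at an unadjusted p of at most 0.05. Of these Pecam1, an endothelial adhesion molecule named outside the rule, also passed the adjusted threshold (adjusted p = 0.0189 by limma), at a change of 0.60 that missed the fold threshold. The summed level of the 9 was 14.14 to 14.53 in WT and 14.53 to 14.81 in AR113Q. Red cell genes were higher on WT replicates 3 and 4, with a summed level of 16.88 and 17.71 beside 15.44 to 15.82 on the other arrays. These are the arrays of slide 4, so slide and mouse cannot be told apart there. In limma 0 of 4 red cell genes passed, with 1 at an unadjusted p of at most 0.05. Of the hepatocyte markers, Ttr, Apoa1 and Fgb were never well above background and Alb was so on 1 array. The hepatocyte sum, 12.69 to 13.80 in WT and 11.33 to 12.72 in AR113Q, came almost wholly from Cyp2e1, which fat also makes. For comparison, the summed level of the 10 adipocyte genes lay between 15.98 and 16.75 in WT and between 15.40 and 15.65 in AR113Q.

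**Figure D4:**
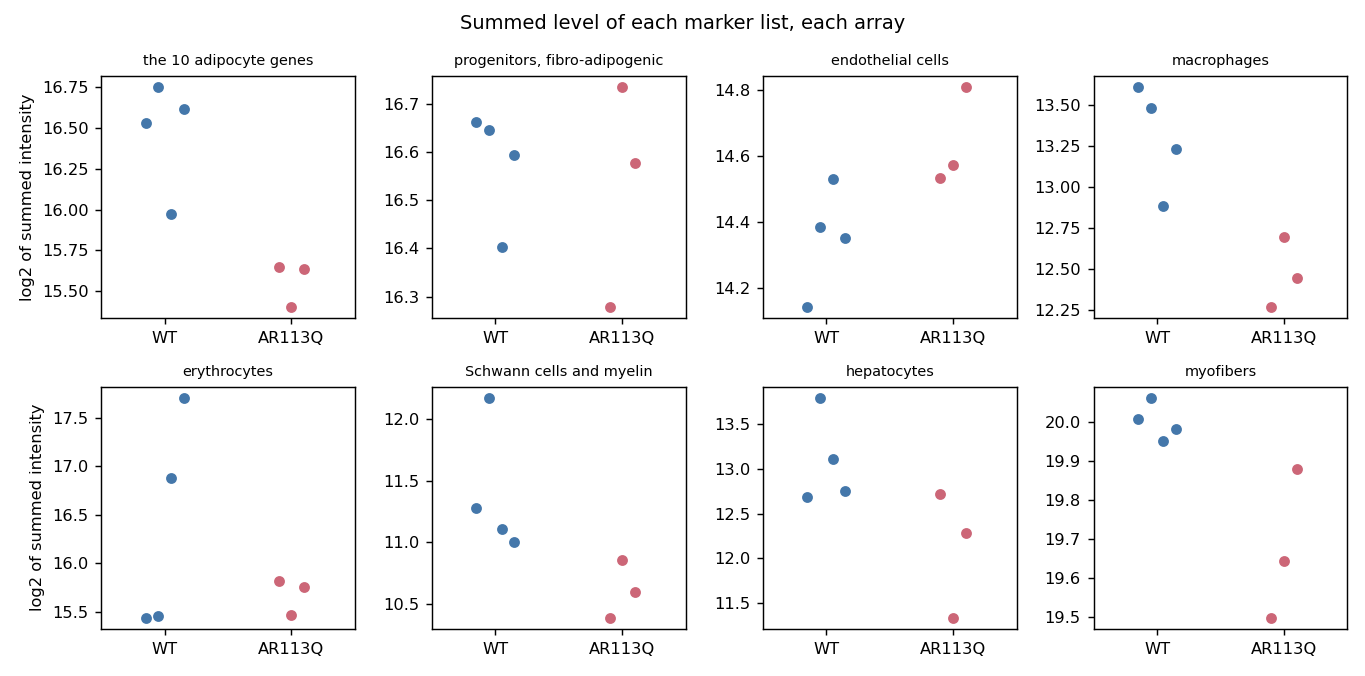
Log2 of the summed intensity of each marker list, by brightest kept probes, on every array, WT (blue) and AR113Q (red); each panel has its own vertical axis, which does not start at 0. The genotypes stand apart, AR113Q below WT, for the 10 adipocyte genes, the macrophage, the Schwann cell and the fiber lists, AR113Q lies just above WT for the endothelial list, and red cell genes are higher on 2 WT arrays.

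The genes outside the set whose profile over the 7 arrays lay nearest to that of Adipoq, by the root mean square difference of log2 values centred on the WT mean among 16542 genes, included Prickle4 (0.43), Acp5 (0.44), Rhbdl3 (0.44) and Pigz (0.45). Prickle4 was well above background on 1 of 3 AR113Q arrays and Pigz on 2 of 3. Both lost their calls with normexp, mean spot intensity and the authors' values, and Rhbdl3 with the authors' values. Of the set itself, Rbp4 lay at 0.49, Retn at 0.52 and Cfd at 0.67, and Cidea at 4.10. Acp5, the tartrate-resistant phosphatase of osteoclasts and macrophages, read 11.40, 11.49, 10.95 and 11.54 in WT and 9.95, 8.49 and 8.95 in AR113Q. Like Adipoq, it was lowest in WT replicate 3 and in AR113Q replicate 2. Likeness over 7 arrays of 2 genotypes rests largely on the genotype difference itself and is given as a description.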

How the data were processed

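RNA of 7 quadriceps muscles was hybridized to single-dye Agilent arrays. The authors extracted the spots with Agilent Feature Extraction 10.7.3.1, and deposited for each array a background-subtracted intensity per spot, not normalized between arrays, with the mean and local background intensity. They also deposited a table of log2 values, quantile normalized per the methods.

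Here spots marked as outliers (94 to 151 per array) and control spots were left out, log2 intensities were quantile normalized and averaged by probe, and a probe was kept where 3 or more of the 7 arrays flagged it as well above background. AR113Q was set against WT with lmFit and eBayes of limma 3.58.1 (R 4.3.3); tables and sequences were read in Python 3.11.15. The fit was first tested on simulated data.

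The genes, lists and naming rule were chosen with earlier results of these data known. The rule names the 10 genes, from each list the 2 called genes that rose most and the 2 that fell most, and the 5 genes nearest to Adipoq. Some genes that the rule names are not reported here. RefSeq accessions named 28330 probes. Alternatives were other scalings and background corrections, the authors' values, other filters and ways to join probes, outlier spots kept, an eBayes trend, array weights, slide and replicate blocks, no fold threshold and each array left out. Mean spot intensity was added after seeing the data.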

Additional observations from a re-analysis of the deposited data

Results flagged for a closer look

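WT arrays were searched for a replicate far from the other 3, over 47 probes, by Dixon's test, which flags about 1 in 20 groups by chance. Cfd on WT replicate 3 stood at 14.76 on the log2 scale, beside 15.62 to 15.73 on the other WT arrays. Thrsp on WT replicate 4 stood at 11.13, beside 11.93 to 12.06.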

How the results depend on the processing

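Of the 10 genes, 7 were called, and 5 to 7 were with 1 array left out; of the 71 wider genes, 27 were called, and 24 to 28 with 1 array left out. Adipoq, Retn, Cfd, Rbp4 and Cidea were called under 21 of 22 alternatives, all but slide as a fixed block, under which 0 of the 10 and 0 of the wider genes passed. Plin1 was lost under 9 alternatives and Cidec under 12. The direction of all 10 genes was kept wherever they were measured; Lep was not in the authors' table and failed the filter that asks for all 7 arrays. With the authors' normalized values 5 of 9 genes and 16 of 69 wider genes passed, where 1592 of 18592 probes did (8.56%), beside 5208 of 20991 (24.8%) here; normexp called 2075 probes and mean spot intensity 2264. The cause was not tested. Rbp4 ran from -3.25 to -1.73 over the alternatives, and Adrb3 fell by 1.37 with the authors' values. Same-numbered replicates deviated together at correlations of 0.0816, 0.0163 and 0.109, too low to pair them. The replicate block, which leaves the unpaired WT replicate 4 without weight, gave 5 of the 10 and 26 of the wider genes. Pparg turned to 0.074 under the replicate block and 0.025 with the 75th percentile, and ran from -0.13 to 0.16 with 1 array left out. Cebpa was -0.29 with slide as a fixed block and -0.089 to 0.35 with 1 array left out, and Adipor1 was -0.10 to 0.19. Lep was well above background on 3 of 7 arrays, and its difference had an SE of 0.56.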
